A study of Mus musculus with 4 samples.

Results

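Cholinergic neurons of the basal forebrain were examined in droplet single-nucleus RNA sequencing of the microdissected posterior substantia innominata, a ventral forebrain region, of wild-type mice aged 8 weeks. A nucleus was counted as cholinergic when Chat, Slc5a7 and Slc18a3 together gave at least 3 unique molecular identifiers (UMIs, each a counted transcript molecule) from at least 2 of these genes. It also needed at least 2 UMIs of the neuronal genes Syt1, Snap25 and Rbfox3, 500 to 8000 detected genes and under 5% of its UMIs from mitochondrially encoded genes. The nuclei were thus chosen by their measured UMIs of these genes, and 338 of 38868 kept nuclei were selected: 165 from males (77 and 88 in libraries male 1 and male 2) and 173 from females (99 and 74 in libraries female 1 and female 2).

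The study set 2 libraries from males against 2 from females, with differences between the sexes in this region's neurons as its question. All 4 libraries came from wild-type animals of the same age, no treatment is named, and no strain is given. Nothing in the labels tells separate animals from pools within a sex, so the spread between libraries behind the p-values may be technical. The test also shares its estimate of spread across genes. A very small p-value therefore does not by itself show that the 4 libraries agreed for that gene. The cholinergic nuclei were set against the 31151 other kept neuronal nuclei of the same libraries (7332, 7116, 8758 and 7945 in male 1, male 2, female 1 and female 2) and against all other kept nuclei. Nuclei are not replicates, so UMIs were summed per library and class. A level in CPM is the number of UMIs of a gene per 1000000 UMIs of that sum, and in nuclei a lower transcript level cannot be told apart from fewer expressing nuclei.

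Acetylcholine is made from choline and acetyl-CoA by choline acetyltransferase, the product of Chat. The transporter encoded by Slc5a7 takes choline back into the terminal, and that encoded by Slc18a3 loads acetylcholine into synaptic vesicles. Basal forebrain cholinergic neurons project to cortex, hippocampus and amygdala, are known for the neurotrophin receptor p75, encoded by Ngfr, and are specified by LIM homeodomain factors such as Lhx8 and Isl1.

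The windows at the transcription starts of the 3 genes of the rule are shown because Chat and Slc18a3 form 1 locus, and that of Slc10a4, a vesicle transporter gene, because it had one of the largest fold changes in the results that follow. Each runs 5′ to 3′ on the gene's strand from 250 bases before to 50 bases after the start, from RefSeq on GRCm38.p6, the build the submitters name as mm10. Capitals mark TAAT, the core motif of homeodomain factors, or ATTA, the same motif on the other strand. Positions were Chat chr14:32465860-32466159, Slc18a3 chr14:32464801-32465100 and Slc5a7 chr17:54298985-54299284, all on the minus strand, and Slc10a4 chr5:73006654-73006953 on the plus strand.
Chat: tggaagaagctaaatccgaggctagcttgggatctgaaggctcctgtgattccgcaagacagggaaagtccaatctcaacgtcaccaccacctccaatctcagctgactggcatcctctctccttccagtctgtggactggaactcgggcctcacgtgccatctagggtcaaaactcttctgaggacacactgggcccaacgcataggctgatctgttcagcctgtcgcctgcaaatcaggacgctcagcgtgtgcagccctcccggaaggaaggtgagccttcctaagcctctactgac
Slc18a3: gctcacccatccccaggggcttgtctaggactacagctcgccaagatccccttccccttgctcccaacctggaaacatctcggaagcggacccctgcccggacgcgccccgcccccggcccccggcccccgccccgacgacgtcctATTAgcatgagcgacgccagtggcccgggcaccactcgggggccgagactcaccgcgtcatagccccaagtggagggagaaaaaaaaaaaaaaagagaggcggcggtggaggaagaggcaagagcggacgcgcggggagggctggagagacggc
Slc5a7: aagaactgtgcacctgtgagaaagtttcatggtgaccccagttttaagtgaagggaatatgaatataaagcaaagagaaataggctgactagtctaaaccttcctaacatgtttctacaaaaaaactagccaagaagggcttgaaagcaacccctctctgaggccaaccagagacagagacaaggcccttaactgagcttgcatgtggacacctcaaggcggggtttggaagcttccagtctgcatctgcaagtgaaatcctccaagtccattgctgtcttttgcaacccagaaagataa
Slc10a4: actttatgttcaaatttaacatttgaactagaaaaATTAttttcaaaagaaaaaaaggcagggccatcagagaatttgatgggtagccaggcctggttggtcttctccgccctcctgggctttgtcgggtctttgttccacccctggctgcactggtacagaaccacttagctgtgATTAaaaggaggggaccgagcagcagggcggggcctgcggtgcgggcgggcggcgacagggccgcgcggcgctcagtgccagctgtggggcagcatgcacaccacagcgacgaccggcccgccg

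The Slc10a4 window held 2 matches, at 215 and 74 bases before the start, and that of Slc18a3 held 1, at 104 bases before the start. The windows of Chat and Slc5a7 held 0. Of 32851 mouse promoter windows of this length, 19064 (58%) held a match, with a median of 1, so the 4 windows are not unusual in this respect. The GC content was 55.7% for Chat, 67% for Slc18a3, 44.7% for Slc5a7 and 57.3% for Slc10a4, against a median of 52.7%. Slc18a3 has 1 exon (chr14:32462438-32464850) and lies on the strand of Chat within a Chat intron, overlapping 0 Chat exons. Reads from unspliced Chat transcripts and from Slc18a3 can therefore not be fully separated by counting.

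The genes of the rule chose the nuclei, so their levels are given as a description. Chat reached 395 and 390 CPM in the cholinergic nuclei of male 1 and male 2 and 483 and 559 CPM in those of female 1 and female 2, against 0.812, 0.672, 4.89 and 2.08 CPM in other neuronal nuclei. Slc5a7 reached 371, 357, 329 and 434 CPM, against 1.37, 1.39, 3.73 and 2.86 CPM. The selection rested almost wholly on this pair, since Slc18a3 gave only 16, 14, 3 and 14 UMIs in all, found in 15, 13, 3 and 10 nuclei. The median cholinergic nucleus held 17, 15, 7 and 9 UMIs of the 3 genes in male 1, male 2, female 1 and female 2, and the highest held 60, 57, 20 and 77. A UMI of Chat was found in 0.927%, 0.689%, 1.88% and 1.15% of other neuronal nuclei and in 0.25%, 0%, 0.243% and 0.566% of nuclei with at least 5 UMIs of oligodendrocyte genes and none of the neuronal genes. The median depth of these oligodendrocyte-type nuclei was 2060, 1960, 1574 and 1336 UMIs, against 11648, 11192, 4816 and 4739 UMIs in other neuronal nuclei. Whether free RNA contributed to the low level outside the cholinergic nuclei was not tested.

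Nuclei just inside the threshold, with 3 or 4 UMIs of the genes of the rule, numbered 4, 2, 21 and 13, and together they held 2, 2, 26 and 13 UMIs of Lhx8. Nuclei just outside it, with 2 UMIs from 2 genes, numbered 2, 1, 5 and 6 and held 0, 0, 2 and 3 UMIs of Lhx8. A further 20, 20, 58 and 16 nuclei had 2 or more UMIs from only 1 of the genes and were not selected. The threshold thus fell closer to the bulk of the cholinergic nuclei in the shallower female libraries.

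**Figure D1:**
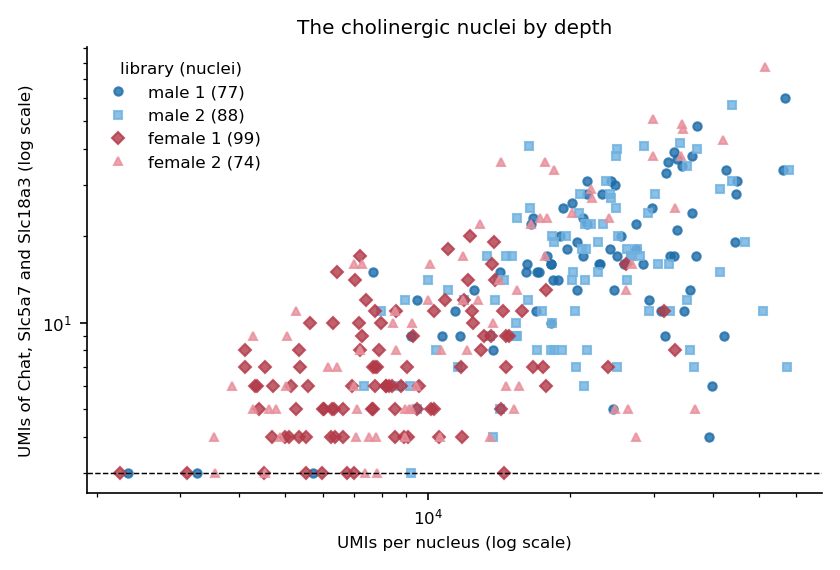
Each point is 1 cholinergic nucleus, with its total UMIs on the x axis and its summed UMIs of Chat, Slc5a7 and Slc18a3 on the y axis, both on log scales, by library. The dashed line is the threshold of 3 UMIs. Most female 1 nuclei lie at lower depth and closer to the line than the male nuclei, with medians of 7 UMIs of these genes against 17 in male 1.

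The cholinergic nuclei were also deeper than their neighbours, with medians of 23387, 21310, 7879 and 11282 UMIs in male 1, male 2, female 1 and female 2, against 11648, 11192, 4816 and 4739 UMIs in other neuronal nuclei. A further 43, 20, 3 and 1 barcodes passed every other part of the rule but held more than 8000 genes, out of 545, 506, 14 and 10 barcodes above that limit. Of the cholinergic nuclei, 10, 11, 11 and 6 were among the barcodes with the highest doublet scores. These were 13.0%, 12.5%, 11.1% and 8.1% of them, against 7.6%, 7.3%, 8.8% and 8.7% of all barcodes in male 1, male 2, female 1 and female 2. Male libraries held 144035342 to 158132452 UMIs in all and female libraries 53098268 to 53679351. Male 1 and male 2 shared 23 barcode sequences, female 1 and female 2 shared 35, and a male and a female library shared 0. Software version, gene list, depth and barcode set all changed together with sex and cannot be told apart from it.

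The label was checked against genes outside the rule. Transcription factors of the basal forebrain cholinergic lineage were higher in the cholinergic nuclei, whereas 8 genes that mark cholinergic neurons of the brainstem, spinal cord or habenula, among them Phox2a, Mnx1, Tbx20, Hoxb5, Hoxc4, Pou4f1 and Prph, gave 0 UMIs in them. These 8 genes together stood at only 0.0198 to 0.151 CPM in other neuronal nuclei and were too low to test. Their absence therefore says little about the label. These genes do not cover cholinergic neurons of the striatum, and whether such neurons are among the selected nuclei was not tested. All of these tests come from the nuclei the rule selected, and each library served as its own reference. Across all genes, 4522 of 19248 tested (23.5%) differed between cholinergic and other neuronal nuclei at an adjusted p under 0.05 in edgeR's quasi-likelihood test. Of these, 1779 (9.24%) were higher and 2743 (14.3%) lower, and the median log2 fold change over all genes was -0.11. With other common size factors the numbers were 2195 higher and 2222 lower, and no gene was called in the opposite direction. After nuclei had been thinned to 3000 UMIs, with shallower nuclei left out, 720 were higher and 1275 lower. Against other neuronal nuclei of matched depth, 1898 were higher and 2071 lower. Counts of list members are set beside these shares. The lists were chosen with earlier results of these data known, so a count above the share is a description and not a test of the list.

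Of the 9 tested basal forebrain transcription factors, 7 were higher, 1 was lower and 1 was not called, with a median log2 fold change of 2.38. Lhx8, a LIM homeobox gene required for forebrain cholinergic neurons, stood at 110, 112, 149 and 121 CPM in cholinergic nuclei of male 1, male 2, female 1 and female 2, against 7.52, 7.46, 8.6 and 11.8 CPM in other neuronal nuclei. The ranges did not overlap, and the log2 fold change was 3.87 ± 0.10 (SE, 4 libraries, adjusted p = 2.07e-298). Isl1, its LIM homeobox partner in cholinergic differentiation, reached 115, 157, 97.2 and 134 CPM, against 20.7, 20.9, 13.8 and 22.2 CPM, a log2 fold change of 2.75 ± 0.10 (adjusted p = 2.42e-169). The ranges of the classes did not overlap for 17.8% of all genes tested. A UMI of Lhx8 was seen in 80.5%, 80.7%, 63.6% and 68.9% of them, against 5.17%, 4.75%, 3.3% and 4.02% of other neuronal nuclei and at most 0.75% of the shallower oligodendrocyte-type nuclei.

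Zic1 and Zic4, zinc finger genes of the septal and preoptic progenitor zones, were higher as well. Zic1 stood at 31.7, 32.1, 34.6 and 31.2 CPM in cholinergic nuclei, against 1.32, 1.63, 1.94 and 1.78 CPM (log2 fold change 4.36 ± 0.23, adjusted p = 5.5e-76). Zic4 stood at 19.2, 17.8, 22.7 and 23.9 CPM, against 1.12, 1.07, 1.12 and 1.36 CPM (4.20 ± 0.29, adjusted p = 4.1e-46). The genes overlap on opposite strands, so how reads were divided between them is uncertain. Nkx2-1, the regulator of the medial ganglionic eminence, was higher at 7.79, 13.3, 5.4 and 11 CPM, against 1.75, 1.8, 1.94 and 2.31 CPM (2.38 ± 0.32, adjusted p = 1.24e-12). Gbx1, a homeobox gene of ventral forebrain cholinergic progenitors, was higher by a log2 fold change of 1.13 ± 0.23 (adjusted p = 1.07e-05). Lhx6, which marks the GABAergic interneuron branch of the same eminence, was the lower member, at 5.19, 2.96, 5.4 and 6.42 CPM, against 12.7, 11.6, 8.64 and 11.1 CPM (-1.21 ± 0.27, adjusted p = 7.4e-05). The calls of Nkx2-1 and Lhx6 were lost when nuclei were thinned to 3000 UMIs, and that of Gbx1 without the library term.

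**Figure D2:**
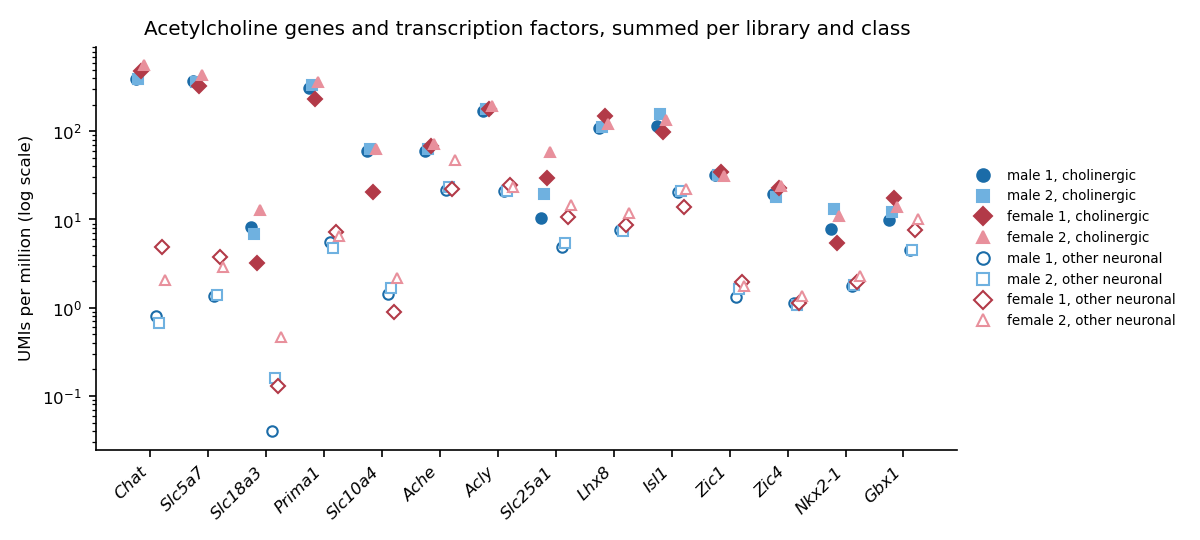
Levels in CPM (log axis) of genes of acetylcholine handling and of transcription factors, with 1 point per library. Filled points are cholinergic nuclei and open points other neuronal nuclei. The rule used Chat, Slc5a7 and Slc18a3, so their separation is a property of the selection. For Prima1, Slc10a4, Acly, Lhx8, Isl1, Zic1, Zic4 and Nkx2-1 the 4 cholinergic values lie above all 4 other values.

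Genes that act on released acetylcholine or in the cholinergic vesicle were higher, with 3 of 4 tested called higher and 0 lower. Prima1, the membrane anchor that holds acetylcholinesterase at the neuronal surface, had the largest fold change among genes at 20 CPM or more in every library. It stood at 311, 334, 234 and 364 CPM in cholinergic nuclei, against 5.59, 4.78, 7.15 and 6.57 CPM in other neuronal nuclei, a log2 fold change of 5.78 ± 0.10. A UMI of Prima1 was present in 92.2%, 90.9%, 72.7% and 89.2% of cholinergic nuclei, against 5.77%, 5.07%, 3.16% and 3.15% of other neuronal nuclei. Prima1 was not restricted to cholinergic nuclei, since oligodendrocyte-type nuclei held 152, 170, 76.6 and 127 CPM. The summed oligodendrocyte markers were lower in cholinergic than in other neuronal nuclei in every library, at 186, 246, 584 and 416 CPM, against 440, 435, 911 and 717 CPM.

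Slc10a4, which encodes a synaptic vesicle protein of cholinergic and monoaminergic neurons, stood at 60.2, 62.7, 20.5 and 62.4 CPM, against 1.42, 1.67, 0.884 and 2.16 CPM (5.15 ± 0.21, adjusted p = 1.34e-129). Female 1 was lower than the other libraries in both classes. Ache, the acetylcholinesterase gene, stood at 59.7, 63.7, 68 and 72.5 CPM, against 21.8, 23.5, 21.9 and 47.1 CPM (1.34 ± 0.11, adjusted p = 1.26e-32). Bche, which encodes the other cholinesterase, did not pass the test, with a log2 fold change of -0.55 ± 0.35 (adjusted p = 0.267). Colq, the collagen anchor of muscle acetylcholinesterase, gave 0 UMIs in cholinergic nuclei.

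Among 13 tested genes of choline and acetyl-CoA supply, 5 were higher, 1 was lower and 7 were not called. Acly, ATP citrate lyase, which makes cytosolic acetyl-CoA from citrate, stood at 171, 181, 177 and 195 CPM, against 20.8, 21.2, 24.9 and 23.6 CPM (3.07 ± 0.09, adjusted p = 6.43e-248). Slc25a1, the mitochondrial citrate exporter that feeds it, stood at 10.4, 19.3, 29.2 and 58.7 CPM, against 4.88, 5.47, 10.8 and 14.6 CPM (1.72 ± 0.18, adjusted p = 4.64e-21). The cholinergic value exceeded the other value within each library, although the ranges overlapped because female 2 was highest in both classes. Acss2, the alternative acetate route, had a log2 fold change of 0.03 ± 0.11 (adjusted p = 0.892), and Pdha1, of pyruvate dehydrogenase, -0.23 ± 0.22 (adjusted p = 0.511).

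On the choline side, the widely expressed choline transporter gene Slc44a1 had a log2 fold change of -0.22 ± 0.09 (adjusted p = 0.0539) and the choline kinase gene Chka one of -0.02 ± 0.08 (adjusted p = 0.906). The remaining higher members, Slc44a2 (0.42), Pcyt1a (0.34) and Slc44a3 (2.70, at 0 to 3.64 CPM), and the lower member Slc44a5 (-0.28), each lost the call under at least 3 alternatives. Without male 1, 3 members were higher and 1 was lower, and without female 2, 3 were higher and 2 lower.

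Of 16 tested genes of neurotrophin and GDNF-family signalling, 4 were higher and 10 lower, with a median log2 fold change of -0.65. Ngfr, the low-affinity neurotrophin receptor p75, stood at 15.6, 19.8, 14 and 14.7 CPM, against 0.149, 0.179, 0.388 and 0.636 CPM (5.88 ± 0.40, adjusted p = 1.38e-47). Outside the cholinergic nuclei it was close to 0 in every library. It was not seen in every cholinergic nucleus: a UMI of Ngfr was found in 23.4%, 28.4%, 11.1% and 16.2%, shares that depend on depth, and in at most 1.1% of oligodendrocyte-type nuclei.

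The receptor genes Ntrk2 and Ntrk3 went the other way. Ntrk2, the receptor of brain-derived neurotrophic factor, had a log2 fold change of -0.41 ± 0.08 (adjusted p = 1.08e-05) and Ntrk3, that of neurotrophin-3, -0.35 ± 0.08 (adjusted p = 0.000239). In cholinergic nuclei Ntrk2 stood at 363 to 406 CPM and Ntrk3 at 379 to 422 CPM. The sortilin-family genes Sorcs1, Sorcs2 and Sorcs3 were lower by log2 fold changes of -1.73, -1.89 and -0.89. Bdnf, a neurotrophin ligand gene, was lower (-1.48 ± 0.39) at a level of at most 3.24 CPM, a call lost without male 1.

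Gdnf, a trophic ligand, and Ret, its signalling receptor, were both higher. Gdnf stood at 17.7, 19.3, 22.7 and 22.9 CPM, against 0.911, 0.966, 1.31 and 1.23 CPM (4.29 ± 0.29, adjusted p = 1.71e-46), and Ret at 9.35, 8.89, 13 and 15.6 CPM, against 1.45, 1.71, 1.75 and 1.99 CPM (2.77 ± 0.31, adjusted p = 2.08e-17). The co-receptor genes Gfra1 (-1.74 ± 0.15) and Gfra2 (-1.51 ± 0.20), which pair with Ret, were lower. Ret and Gfra1 therefore differed in opposite directions in the sums over cholinergic nuclei. Whether they did so within single nuclei was not tested.

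**Figure D3:**
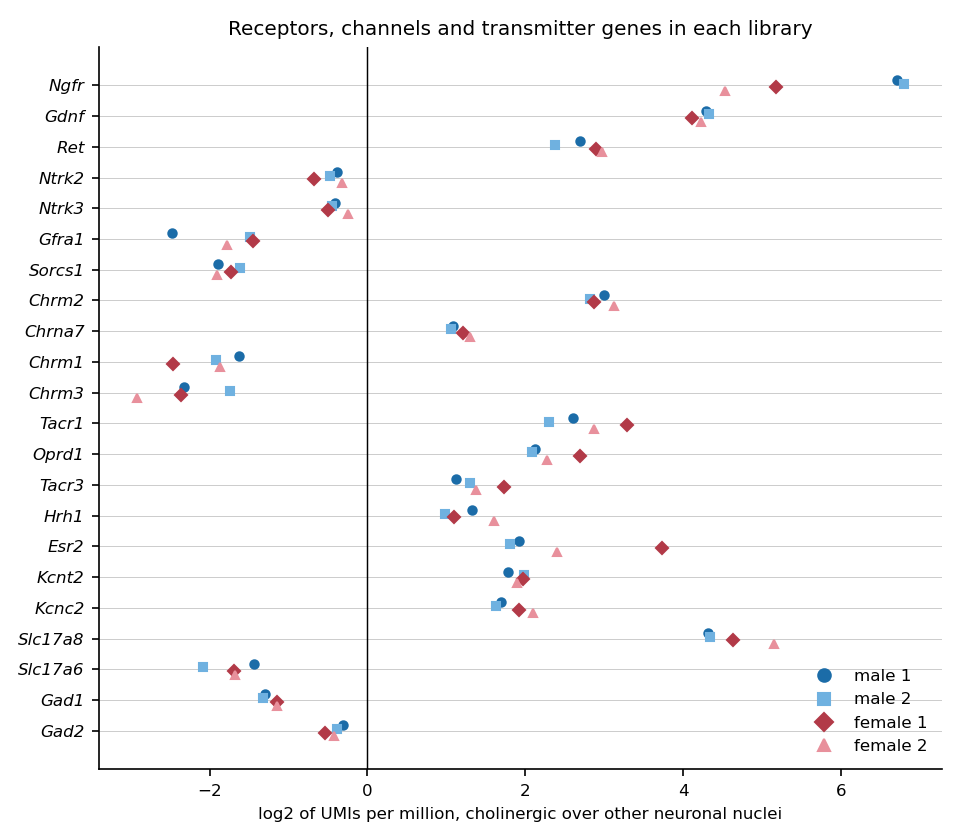
Log2 ratio of the level in cholinergic nuclei over that in other neuronal nuclei for 22 list members, with 1 point per library and the line at 0 marking no difference. Ngfr, Slc17a8 and Gdnf lie far to the right in all 4 libraries, and Chrm1, Chrm3, Sorcs1, Gfra1, Slc17a6 and Gad1 lie to the left in all 4.

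Receptors for acetylcholine itself divided between members. Of 16 tested muscarinic and nicotinic receptor and chaperone genes, 5 were higher, 5 lower and 6 not called. Chrm2, the inhibitory muscarinic autoreceptor of cholinergic terminals, stood at 798, 705, 886 and 839 CPM, against 100, 100, 121 and 96.2 CPM (3.01 ± 0.09, adjusted p = 8.77e-267). Chrm3, a Gq-coupled muscarinic receptor, was lower, at 88.8, 130, 103 and 72.5 CPM, against 445, 435, 528 and 546 CPM (-2.22 ± 0.09, adjusted p = 4.49e-119), and Chrm1, also Gq-coupled, was lower by -1.82 ± 0.23 (adjusted p = 3.33e-14). The groups did not overlap for any of these genes. Chrna7, the homomeric nicotinic receptor subunit, was higher at 123, 111, 118 and 120 CPM, against 58.2, 53.5, 51 and 48.7 CPM (1.20 ± 0.09, adjusted p = 3.19e-37). The other higher members, Chrnb4, Chrna3 and Chrnb3, stood at no more than 3.46 CPM in any library. Lynx1 (-0.78) and Lypd1 (-0.96), which encode brakes on nicotinic receptors, were lower. Without male 1, 3 members were higher, and without male 2, 2 were higher.

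Transcripts for other small transmitters were mostly lower, with 6 of 7 genes called lower and 1 higher. Slc17a8, which encodes the vesicular glutamate transporter VGLUT3, was the higher one, at 16.1, 26.2, 32.4 and 40.4 CPM, against 0.812, 1.3, 1.31 and 1.14 CPM (4.64 ± 0.27, adjusted p = 2.13e-65). A UMI was found in 16.9%, 28.4%, 18.2% and 28.4% of cholinergic nuclei, against 0.682%, 0.843%, 0.582% and 0.378% of other neuronal nuclei. Slc17a6, which encodes VGLUT2, was lower at 5.93 to 8.83 CPM, against 20.6 to 25.1 CPM (-1.67 ± 0.20), and Slc17a7, which encodes VGLUT1, gave 0 UMIs in cholinergic nuclei and was at least 4.84-fold lower over the 4 libraries, counted against a floor of 3 UMIs.

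Genes for GABA synthesis and vesicle loading were lower. Gad1 stood at 43.6, 43, 55.1 and 53.2 CPM, against 107, 108, 122 and 118 CPM (-1.18 ± 0.11, adjusted p = 3.07e-27), and Gad2 at 167, 161, 132 and 144 CPM, against 207, 210, 191 and 194 CPM (-0.35 ± 0.09, adjusted p = 0.000503). After thinning to 3000 UMIs, a UMI of Gad2 was found in 28.9%, 30.7%, 36.7% and 28.4% of cholinergic nuclei, against 39.9%, 40.4%, 40.2% and 39.9% of other neuronal nuclei. Without thinning the shares were 84.4%, 88.6%, 62.6% and 66.2%, against 70%, 70.3%, 49.8% and 50.1%. In oligodendrocyte-type nuclei, which should lack these genes, Gad2 stood at 32.4, 31.5, 29.8 and 45.8 CPM, with a UMI after thinning in 5.8%, 1.96%, 3.33% and 10.3% of nuclei, and Gad1 stood at 14.6, 18.2, 38.3 and 31.4 CPM. At most 70, 52, 31 and 39 of the 400, 362, 411 and 530 oligodendrocyte-type nuclei were deep enough to be thinned. Their shares after thinning thus rest on few nuclei, the deepest of the class. Slc32a1, the vesicular GABA transporter gene, was lower at 9.35, 15.8, 8.64 and 22 CPM, against 35.8, 38, 15 and 59.9 CPM (-1.38 ± 0.16, adjusted p = 2.28e-16). Oligodendrocyte-type nuclei held 35.5, 36.4, 38.3 and 80.8 CPM of Slc32a1, more than cholinergic nuclei in every library. The oligodendrocyte-type nuclei were far shallower, so their CPM is not a direct measure of background in cholinergic nuclei. Whether the Slc32a1 level in cholinergic nuclei is background was not tested.

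No neuropeptide gene of the list was higher: of 17 tested, 9 were lower and 8 not called, with a median log2 fold change of -1.12. Without the library term, 2 of 16 tested were lower. Penk, the enkephalin precursor gene, stood at 22.9, 40, 10.8 and 37.6 CPM, against 74.3, 82.5, 28.1 and 91.2 CPM (-1.25 ± 0.12), and Tac2, which encodes neurokinin B, was lower by -2.47 ± 0.29. Gal, the galanin gene, did not pass, at 3.12, 1.98, 0 and 3.67 CPM, against 4.55, 4.33, 0.884 and 5.34 CPM (-0.72 ± 0.42, adjusted p = 0.228). Of 26 tested peptide receptor genes, 5 were higher and 12 lower. After thinning, 4 were higher and 1 was lower.

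Tacr1, which encodes the substance P receptor NK1, was the leading peptide receptor, at 262, 222, 308 and 203 CPM, against 43.2, 45, 31.7 and 27.7 CPM (2.79 ± 0.09, adjusted p = 2.33e-226). Oprd1, the delta opioid receptor gene, stood at 61.3, 61.7, 86.4 and 94.5 CPM, against 14.1, 14.5, 13.4 and 19.5 CPM (2.33 ± 0.11, adjusted p = 2.7e-95). Tacr3, the neurokinin B receptor gene (1.39 ± 0.13), Ntsr1, a neurotensin receptor gene (1.26 ± 0.19), and Oprm1, the mu opioid receptor gene (0.59 ± 0.09), were also higher. Oprk1, the kappa opioid receptor gene, was lower (-0.85 ± 0.18). Among the lower members, Npy5r (-2.70 ± 0.40), Npy2r (-1.83 ± 0.31) and Npy1r (-1.65 ± 0.37) are receptors of neuropeptide Y, and Hcrtr2, an orexin receptor gene, differed less (-0.54 ± 0.14). The call of Hcrtr2 was lost under 6 alternatives, DESeq2 among them.

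Amine, adenosine and cannabinoid receptor genes split 7 higher and 10 lower among 23 tested. The histamine receptor genes Hrh1 and Hrh2 were higher by 1.29 ± 0.12 and 1.07 ± 0.14, and the adrenergic receptor genes Adra1a and Adra1b by 0.94 ± 0.09 and 0.87 ± 0.22. The call of Adra1b was lost after thinning. Hrh1 stood at 45.7, 38, 45.4 and 51.4 CPM, against 18.3, 19.2, 21.3 and 16.9 CPM, with no overlap. The serotonin receptor genes that passed were all lower, namely Htr1f (-1.88), Htr4 (-1.86), Htr1b (-2.10), Htr1d (-2.41), Htr7 (-0.86) and Htr2a (-0.66). The call of Htr2a was lost under 5 alternatives, DESeq2 among them, and that of Htr7 without the library term. Drd1, the D1 dopamine receptor gene, was lower (-1.71 ± 0.26), and Drd2, the D2 receptor gene, was higher at 21.3, 21.7, 34.6 and 22.9 CPM, against 15.2, 14.9, 22.4 and 14 CPM (0.63 ± 0.15, adjusted p = 0.000254). The Drd2 call was lost after thinning, without the library term and with no upper gene limit.

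Of 9 steroid and thyroid hormone receptor and aromatase genes, 2 were higher and 5 lower. Esr2, which encodes estrogen receptor beta, stood at 27.5, 23.7, 33.5 and 23.9 CPM, against 7.28, 6.77, 2.52 and 4.51 CPM (2.38 ± 0.20, adjusted p = 2.49e-32). Esr1, which encodes estrogen receptor alpha, stood at 37.9, 34.1, 47.5 and 27.5 CPM, against 27.7, 26.3, 27.3 and 29.8 CPM (0.45 ± 0.13, adjusted p = 0.00273). The Esr1 ranges overlapped, and the direction turned in female 2. The Esr1 call was lost without male 1, without the library term, after thinning and with no upper gene limit. Nr3c1, the glucocorticoid receptor gene (-0.80), and Thrb, a thyroid hormone receptor gene (-1.13), were lower.

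Potassium and HCN channel genes were more often lower, with 6 of 31 higher and 18 lower. Without the library term this lean was lost, with 5 higher and 4 lower. Kcnt2, a sodium-activated potassium channel gene, stood at 678, 809, 739 and 619 CPM, against 197, 204, 188 and 166 CPM (1.97 ± 0.08, adjusted p = 1.09e-121). Kcnc2, which encodes the fast delayed-rectifier subunit Kv3.2, stood at 1375, 1320, 1639 and 1800 CPM, against 425, 427, 433 and 420 CPM (1.89 ± 0.08, adjusted p = 3.92e-108). Neither range overlapped. Hcn4 (1.27 ± 0.29) and Hcn3 (1.07 ± 0.18), pacemaker channel genes, were higher. Kcnip4, an A-type channel accessory gene, stood at 3395, 5001, 3483 and 2847 CPM, against 7498, 7456, 6682 and 5730 CPM (-0.86 ± 0.09).

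Among 25 sodium, calcium and cation channel genes, 9 were higher and 8 lower. The TRPC cation channel genes Trpc4 (0.83 ± 0.08) and Trpc7 (115 to 192 CPM, against 49.4 to 56.7 CPM) were higher and Trpc5 was lower (-0.60 ± 0.09). Scn9a, which encodes the sodium channel Nav1.7, stood at 306, 319, 298 and 357 CPM, against 135, 134, 165 and 149 CPM (1.20 ± 0.08), and Scn1a was lower (-0.91 ± 0.09). The calcium channel accessory genes Cacna2d2 (0.95) and Cacna2d3 (0.71) were higher and Cacna2d1 was lower (-1.56). Of 24 glutamate receptor genes, 3 were higher, among them Grik4 (0.82) and Grin3a (0.65), and 12 lower, led by Grm8 (-2.05) and Grik1 (-1.97). Of 19 GABA and glycine receptor genes, 1 was higher, Glra2 (0.73), and 11 were lower, among them Glra1 (-1.74). Without the library term, 1 of these 19 was higher and 2 were lower.

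Of 14 neurofilament, microtubule and axon growth genes, 6 were higher and 1 lower, with Stmn2 (0.75), Map1b (0.59), Kif5a (0.42) and Mapt, the tau gene (0.41), among the higher ones. Of 9 calcium-binding protein genes, 1 was higher, Hpcal1 (1.64 ± 0.10), and 5 were lower. Calb1, the calbindin gene, which marks basal forebrain cholinergic neurons in primates, was lower at 40, 33.6, 31.3 and 27.5 CPM, against 55.3, 56, 49.5 and 46.1 CPM (-0.59 ± 0.12, adjusted p = 1.7e-05). Of 24 nuclear genes of the respiratory chain, 0 were higher, 2 were lower and 22 were not called. Of 16 immediate early genes, 0 were higher and 6 lower, and the count of lower genes was 1 without male 1, 2 without male 2 and 0 with DESeq2 or after thinning.

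**Figure D4:**
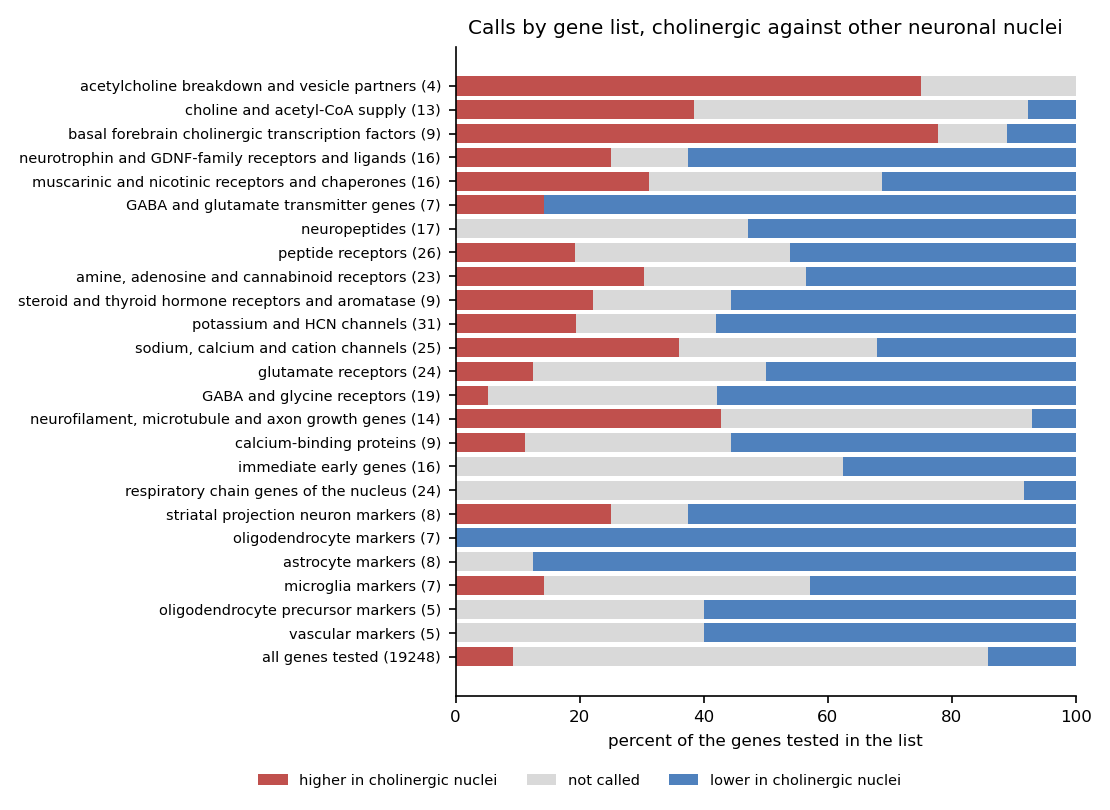
Share of the tested members of each list called higher, not called or called lower in cholinergic against other neuronal nuclei, with all genes for comparison. Across all genes 9.24% were higher and 14.3% lower. The transcription factor list has 7 of 9 higher, the neuropeptide list 0 of 17 and the potassium channel list 6 of 31.

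Markers of other cell types were read in the same sums. Of the oligodendrocyte markers, 7 of 7 were lower in cholinergic than in other neuronal nuclei, and 7 of 8 astrocyte markers were lower, summing to 209, 169, 268 and 231 CPM, against 279, 287, 501 and 439 CPM. No oligodendrocyte or astrocyte marker was called higher. The oligodendrocyte count of 7 was 4 after thinning and 0 with no upper gene limit or without the library term, and the astrocyte count of 7 was 3 after thinning, 4 against neurons of matched depth and 0 without the library term. Microglia markers summed to 55.6, 55.8, 149 and 76.2 CPM, against 68.2, 64.8, 150 and 119 CPM, with 1 member higher and 3 lower of 7. Of 5 oligodendrocyte precursor markers and of 5 vascular markers, 3 each were lower and 0 higher, with 0 lower in both lists without male 2 and 0 lower vascular markers without female 2. Of 8 markers of striatal projection neurons, 5 were lower and 2 higher, namely Pde10a (0.76 ± 0.08) and Drd2, while Adora2a stood at 0 to 1.08 CPM. The sum of these markers was nevertheless higher in cholinergic nuclei in every library, at 1198, 938, 1232 and 1520 CPM, against 847, 823, 946 and 812 CPM. Mitochondrially encoded transcripts summed to 359, 258, 409 and 2940 CPM, against 356, 399, 486 and 3363 CPM, so female 2 stood apart in both classes.

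Beyond the lists, the genes with the largest fold changes were taken by rule from those at 20 CPM or more in every library. The 12 highest comprised Prima1, Slc10a4, Zic1 and Lhx8, already described, and 8 others. Ly75, which encodes an endocytic receptor best known from dendritic cells, stood at 82.1, 80.5, 45.4 and 77.1 CPM, against 2.55, 2.07, 2.2 and 3.09 CPM (log2 fold change 4.94). Cd44, the hyaluronan receptor gene, stood at 86.2, 61.2, 75.6 and 69.8 CPM, against 2.68, 2.68, 3.06 and 2.46 CPM (4.80). Abca4, a lipid transporter gene best known from photoreceptors, stood at 38.4, 27.2, 27 and 36.7 CPM, against 1.94, 2.1, 1.49 and 1.61 CPM (4.21). Each was higher in all 4 libraries with no overlap, and none of them exceeded 2.84 CPM in oligodendrocyte-type nuclei.

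Qrfprl, a receptor-like paralog of Qrfpr, stood at 126, 110, 121 and 162 CPM, against 6.36, 5.91, 5.13 and 8.44 CPM (4.38). Qrfpr, the receptor gene of the peptide QRFP, led the lower genes instead, at 4.67, 5.93, 0 and 3.67 CPM, against 24, 25.3, 20.7 and 32.7 CPM (-2.56). The 2 related genes thus differed in opposite directions, although reads shared by paralogs make the exact levels uncertain. Popdc3, a popeye-domain membrane protein gene (4.39), and the long non-coding genes Gm29374 (4.90), Gm11906 (4.82) and Gm43154 (3.90) completed the higher set. Gm11906 stood at 507, 374, 461 and 968 CPM, against 16.8, 16.6, 31.7 and 18 CPM, and it overlaps Gpr63 on the same strand, so its reads cannot be assigned with certainty. The other lower genes were Zbbx (-2.39), Galnt14, a glycosyltransferase gene (-2.34), Ebf1, a transcription factor gene (-2.27), Chrm3 (-2.22), Fstl4 (-2.21), A830082K12Rik (-2.20) and 6530403H02Rik (-2.18).

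Against all other kept nuclei, glia included, 4647 of 19431 genes (23.9%) were called, 2017 of them higher (10.4%) and 2630 lower (13.5%). The leading higher genes there began with Prima1 (5.27 ± 0.09) and Slc10a4 (5.20 ± 0.21). All 20 genes named by the rule in that comparison passed under each of the 14 alternatives tried. Against other neuronal nuclei alone the fold change was 5.78 for Prima1 and 5.15 for Slc10a4.

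The cholinergic nuclei were not uniform. Clustering of the 338 nuclei alone gave 7 sub-clusters, and since clustering used the same counts, the levels are a description with no test. Other clustering resolutions of 0.4 and 1 gave 5 and 10 sub-clusters, against 7 at 0.6, so the number is a choice. Every sub-cluster held nuclei of all 4 libraries. Each gene was centred and scaled within each library before clustering, which favours such mixing, so the mixing is not evidence for the sub-clusters. Chat ranged between 259 CPM in sub-cluster 2 and 734 CPM in sub-cluster 6, and Lhx8 between 55 and 173 CPM.

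Sub-cluster 3 (66 nuclei; 14, 16, 21 and 15 in male 1, male 2, female 1 and female 2) had the highest Ngfr (38.6 CPM), Chrm2 (1559 CPM), Acly (360 CPM), Zic1 (66.5 CPM), Kcnc2 (3348 CPM) and Tacr1 (490 CPM). Its Gad1 level was 9.03 CPM and its Gdnf level 1.64 CPM, and Kcnip4 was lowest of the 7 at 675 CPM. Gm11906 led it, at 1603 CPM, against 266 CPM in the other cholinergic nuclei. Sub-cluster 4 (55 nuclei; 13, 13, 18 and 11) shared high Tacr1 (433 CPM) and low Gad1 (10.7 CPM), but had Gdnf at 38.2 CPM and the highest Drd2 (65.7 CPM) and Chrna7 (238 CPM).

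Sub-cluster 1 (76 nuclei; 13, 20, 24 and 19) was led by Nos1, the neuronal nitric oxide synthase gene, at 343 CPM, against 68.1 CPM in the other cholinergic nuclei. It had 0 UMIs of Ngfr, with Gad1 at 75.1 CPM, Gdnf at 43.4 CPM and the highest Isl1 (201 CPM). Sub-cluster 6 (27 nuclei; 3, 8, 8 and 8) was led by Gpc6, a glypican gene, at 3294 CPM, against 455 CPM, and by Tacr3 at 239 CPM, against 27.7 CPM. It held the highest Chat (734 CPM), Slc17a8 (88.7 CPM), Gad1 (101 CPM) and Gdnf (51.7 CPM), with the lowest Kcnc2 (234 CPM). Tacr1 and Gdnf thus followed different orders: sub-cluster 3 had high Tacr1 with little Gdnf, sub-clusters 1 and 6 (Tacr1 at 88.8 and 59.1 CPM) the opposite, and sub-cluster 4 had both.

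Sub-clusters 2 and 5 were deeper and had the lowest Chat. Sub-cluster 2 (68 nuclei; 21, 22, 13 and 12; median 25167 UMIs) was led by St18 and Grm8 and had the oligodendrocyte markers Mbp, Mobp and Mog among its leading genes, with Mbp at 241 CPM. Sub-cluster 5 (30 nuclei; 9, 7, 7 and 7; median 25714 UMIs) was led by Meis2 at 416 CPM, against 130 CPM, and by Foxp2, and had 0 UMIs of Gdnf. Sub-cluster 7 (16 nuclei; 4, 2, 8 and 2) was led by the astrocyte gene Slc1a3 at 438 CPM, against 14 CPM. Sub-clusters 2 and 7, which together held 25, 24, 21 and 14 nuclei, had glial transcripts among their leading genes. Genes called lower in cholinergic nuclei as a whole were also among the leading genes of sub-cluster 2, namely Grm8 (403 CPM, against 58.3 CPM in the other cholinergic nuclei) and Chrm3 (234 CPM, against 46.6 CPM), and Chrm3 was among those of sub-cluster 5 (198 CPM, against 88.4 CPM). The part of RNA from glia or from other neurons in these profiles was not tested. Without them the comparison with other neuronal nuclei gave 1970 higher and 2873 lower genes.

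**Figure D5:**
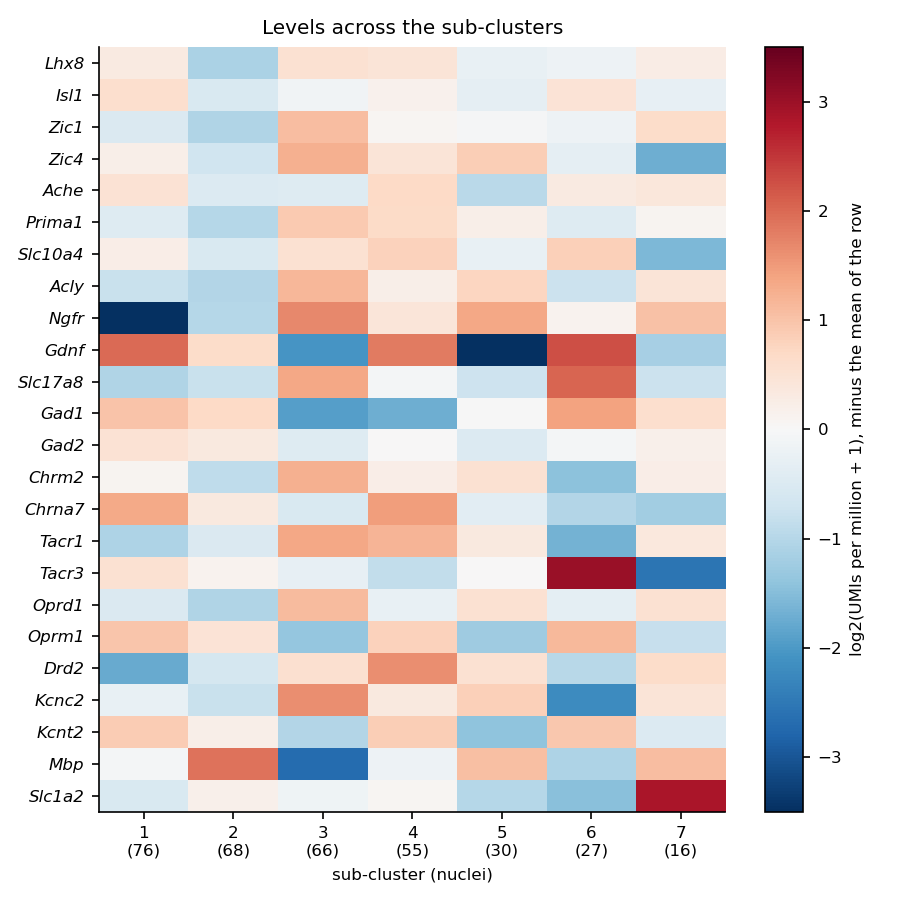
Levels in the 7 sub-clusters of cholinergic nuclei as log2(CPM + 1) minus the mean of each gene's row, with colours limited to 3.5 in each direction. Sub-cluster 3 stands out by Ngfr and Kcnc2, sub-cluster 6 by Tacr3 and Slc17a8, and sub-clusters 2 and 7 by glial genes.

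The comparison the study was designed for, males against females, was made within the cholinergic nuclei (165 male and 173 female). Of 10396 genes tested, 9 (0.0866%) passed, 7 higher (0.0673%) and 2 lower (0.0192%) in males, and 1174 had an unadjusted p under 0.05. The sex-linked genes among them follow the labels. Xist, the X-inactivation RNA gene, gave 0 CPM in male 1 and male 2, against 1821 and 1482 CPM in female 1 and female 2. Uty, Eif2s3y, Kdm5d and Ddx3y, genes of the Y chromosome, gave 46.4 to 169 CPM in male nuclei, against 0 to 1.08 CPM in female nuclei.

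The 4 autosomal genes called were Arfip1, Gm55122, Mapkapk5 and Chpf2. Arfip1, an arfaptin gene, stood at 46.2 and 53.3 CPM in male 1 and male 2, against 1.08 and 0 CPM in female 1 and female 2. Chpf2, a chondroitin polymerising factor gene, stood at 18.2 and 16.3 CPM in males, against 71.3 and 77.1 CPM in females. The same differences were present in other neuronal nuclei, where Arfip1 stood at 32.8 and 33.9 CPM, against 2.03 and 1.4 CPM, and Chpf2 at 19.4 and 23.1 CPM, against 54.8 and 89.5 CPM. Both differences were thus seen outside cholinergic neurons too, and sex cannot be told apart from the software version and gene list that changed with it.

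None of the list members other than the sex-linked genes was called between the sexes. The genes of the rule chose the nuclei at a fixed number of UMIs in libraries of unlike depth, so their difference between the sexes is not read. The ranges of males and females did not overlap for 43.6% of tested genes, so lack of overlap carries little information with 2 libraries a sex. With DESeq2, 100 genes passed. In edgeR the count depended on the female libraries and rose when either was left out, a fit with no replicate among females. Of the 10 genes next in order of unadjusted p, all uncalled, Ecel1, which encodes an endopeptidase-like enzyme of neurons, stood at 90.4 and 76.5 CPM in males, against 221 and 212 CPM in females (-1.33 ± 0.16, adjusted p = 0.0625).

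To set aside differences that ran through whole libraries, the sex difference of cholinergic nuclei was tested against that of other neuronal nuclei. Of 19248 genes, 30 (0.156%) passed, 9 with a positive (0.0468%) and 21 with a negative (0.109%) interaction. Among the list members that passed was Tacr1. It stood at 262 and 222 CPM in male 1 and male 2, against 308 and 203 CPM in female 1 and female 2, in cholinergic nuclei, and at 43.2 and 45 CPM, against 31.7 and 27.7 CPM in other neuronal nuclei (interaction -0.66 ± 0.16, adjusted p = 0.0423). For Tacr1 the cholinergic ranges of the sexes overlapped, with a male over female log2 difference of -0.08, against 0.57 in other neuronal nuclei. The call of Tacr1 was lost under 11 alternatives. Without male 1 the count of genes was 0 (444 at an unadjusted p under 0.05), and with DESeq2 it was 1.

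Cholinergic nuclei made up 1.04% (exact 95% interval 0.821 to 1.3) of kept neuronal nuclei in male 1, 1.22% (0.981 to 1.5) in male 2, 1.12% (0.909 to 1.36) in female 1 and 0.923% (0.725 to 1.16) in female 2. The intervals are Clopper-Pearson intervals and cover counting error only. The mean was 1.13% ± 0.129 in males and 1.02% ± 0.138 in females (SD, n = 2 each), a difference of 0.11 percentage points (two-sided exact permutation test, p = 0.67, the smallest possible with 2 against 2 being 0.33). The share depends on depth. When nuclei were thinned to 3000 UMIs before the rule was applied, the shares were 0.452% and 0.376% in males, against 0.668% and 0.524% in females. Nuclei below 3000 UMIs were left out. This kept 7472 of 8829 and 7167 of 8577 nuclei in male 1 and male 2. In female 1 and female 2 it kept 7012 of 10881 and 6315 of 10581, so the shares rest on unlike parts of the libraries. With barcodes above 8000 genes included, the mean was 1.45% in males, against 1.04% in females, so a difference in the share of cholinergic neurons was not detectable in these libraries.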

How the data were processed

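Single-nucleus UMI counts per gene and barcode were deposited for 4 libraries as whole, unnormalized counts. The genome build mm10, Seurat 5 and Cell Ranger 6.0.1 are named per the submitters' processing notes. The Cell Ranger versions per the file headers are instead 9.0.1 (male 1 and male 2), 7.0.0 (female 1) and 7.2.0 (female 2). The labels name both v2 and v3 of the 10x kit. The files list 33696, 33696, 55357 and 32285 genes in male 1, male 2, female 1 and female 2, of which the 31899 shared by all were used, holding 99.5%, 99.5%, 97.7% and 99.6% of UMIs.

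UMIs were summed per library and class and tested with edgeR 4.0.16 (quasi-likelihood, TMM, filterByExpr, R 4.3.3), with Benjamini-Hochberg adjustment over all genes tested at 0.05. Comparisons of classes had the library as a block, and the sex comparison used cholinergic sums alone. Each SE is the absolute log2 fold change over the square root of the F statistic, and is not a spread between libraries. The genes of the rule were not called in comparisons of classes, nor mitochondrially encoded genes in any. The scripts were tested on simulated data. Gene coordinates came from GENCODE vM21. The members and the 29 gene lists (381 genes) were chosen with earlier results of these data known. Genes outside the lists were named by rule: the 12 called higher and 8 called lower with the largest change, at 20 CPM or more in every library of the higher class and changed one way in every library. Where under 20 genes were called, all were named, with the 10 next by unadjusted p. Of the interaction, only list members were named. Some list members are counted in their lists but not reported here by name.

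Doublets were scored with Scrublet in scanpy 1.11.5. Its automatic threshold marked at most 0.01% of barcodes and so did not work, and barcodes were ranked at 0.8% per 1000 recovered. Doublets were kept in the main analysis. Alternatives were DESeq2 1.42.0, median-ratio size factors, no filter on low counts, no library block, each library left out, thresholds of 5 and 2 UMIs, doublets removed and thinning to 3000 UMIs. Thinning left out nuclei below 3000 UMIs. Added after seeing the data were no upper gene limit, other neuronal nuclei of matched depth and removal of sub-clusters led by glial transcripts. Sub-clusters used 1000 variable genes, chosen with the library as a batch and centred and scaled within each library, with 15 components and 15 neighbours. The replicate numbers do not pair a male with a female library.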

Additional observations from a re-analysis of the deposited data

Results flagged for a closer look

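The sex difference of Tacr1, the NK1 receptor gene, differed between cholinergic and other neuronal nuclei by a test of the difference itself (interaction -0.66 ± 0.16, edgeR adjusted p = 0.0423). The male over female log2 difference was -0.08 in cholinergic nuclei and 0.57 in other neuronal nuclei. Tacr1 was not called between the sexes within cholinergic nuclei (adjusted p = 0.979 in edgeR).

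Barcodes that the upper limit of 8000 genes left out also carried the cholinergic genes. Those that met the rest of the rule numbered 43 and 20 in the male libraries, against 3 and 1 in the female libraries. Barcodes of any kind above 8000 genes numbered 545 and 506 in the deeper male libraries, against 14 and 10 in the female libraries. The counts are therefore not read as a sex difference of cholinergic nuclei. The share of doublets among them was not tested.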

How the results depend on the processing

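No gene was called in opposite directions under any alternative in the comparisons of cholinergic with all other or with other neuronal nuclei. Counts moved: without the replicate block (the library term) they were 1519 and 1381, after thinning 2128 and 1995, and with no upper gene limit 2106 and 1957, for all other and other neuronal nuclei. Leaving out a library gave 3542 to 4288 and 3347 to 4108. The share of calls that were higher against other neuronal nuclei was 39.3%, against 49.7% with median-ratio size factors and 54.1% with DESeq2.

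Between the sexes, 100 genes passed with DESeq2, 360 with no filter on low counts, 79 with the replicate block, 14 after thinning and 4 with no upper gene limit, and leaving out a library gave 5 to 1763. The interaction gave 1 gene with DESeq2, 0 without the replicate block (303 at an unadjusted p under 0.05 in edgeR), 2 after thinning, 798 with no upper gene limit, 8 with neurons of matched depth and 18 without the sub-clusters led by glial transcripts. Leaving out a library gave 0 to 177. The replicate numbers only name the libraries (correlation of deviations 0.04 for male 1 with female 1).

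The difference in the share of cholinergic nuclei turned to -0.182 percentage points with the rule on thinned counts, and leaving out a library gave 0.0127 to 0.208. Cck, not called at 0.14, turned to -2.23 without doublets and -3.45 without the sub-clusters led by glial transcripts, and Slc44a2 to -0.05 after thinning. The cause was not tested. The 47 UMIs of Slc18a3 limit what can be said of that gene.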
